A study of Homo sapiens and Mus musculus with 9 samples.

Results

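RPPH1, RMRP and TERC are the RNA components of 3 human ribonucleoprotein enzymes, RNase P, RNase MRP and telomerase. Their sites were all peaks of the 3 human lists that overlapped the GRCh38 span of one of the genes by at least 1 bp. That rule found 9 peaks among 3706, exactly 1 per RNA in each list, and every RNA was found in every list.

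RNase P trims the 5′ leader from precursor tRNAs, and RPPH1 is its catalytic RNA. RNase MRP cuts precursor ribosomal RNA in the nucleolus. Its RNA, RMRP, is related to RPPH1, shares most protein subunits with it and is mutated in cartilage-hair hypoplasia. TERC carries the template from which telomerase copies telomeric repeats. The 3′ part of TERC is an H/ACA domain like that of the RNAs that guide pseudouridylation, and it binds dyskerin and its partners and directs the RNA to Cajal bodies. RPPH1 and RMRP are made by RNA polymerase III and TERC by RNA polymerase II, and all are transcribed from the minus strand.

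The study used enhanced UV crosslinking and immunoprecipitation sequencing (eCLIP), in which RNA held to a protein by UV light is trimmed with RNase I, pulled down with an antibody and sequenced, to look for RNAs bound by the pregnane X receptor (PXR), a transcription factor activated by drugs and other foreign chemicals. The first list, named for an immunoprecipitate of LS174T PXR knockout cells, is called KO-named. The second stands for 2 HepG2 immunoprecipitates made with an antibody to the HA tag, from a hepatocellular carcinoma line whose labels state no genotype or tagged construct. The third, named for an immunoprecipitate of wild-type LS174T cells, is called WT-named. The target of the LS174T and HepG2 immunoprecipitates, PXR, is given by the sample titles and not by the names of these lists. LS174T is a colorectal adenocarcinoma line, and whether its knockout is 1 clone is not stated in the labels. The record ties the KO-named set to the wild-type PXR immunoprecipitate and the WT-named set to the wild-type input, against the names of the lists and of their peaks. Neither a genotype nor an immunoprecipitation effect is therefore taken from their difference. All cells were crosslinked with UV, and no list is tied to the HepG2 input. Each list is 1 set of values, so no difference below is set against a spread between replicates and no p-value is given.

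The KO-named set held 46 peaks, the HepG2 list 1557 and the WT-named set 2103, with medians of 19, 9 and 11 reads at the summit in the same order. Reads were recovered from the deposited fold and −log10 p of each peak, and intervals on them cover counting error only, since they may include PCR copies. None of 8 hepatocyte markers, ALB and APOA1 among them, had a peak in any list. Of 10 colon epithelium markers, 0 had a peak in the KO-named set, 2 in HepG2 (EPCAM and CDH17) and 6 in the WT-named set. Of all protein-coding genes, 0.115% overlapped a peak in the KO-named set, 5.52% in HepG2 and 7.29% in the WT-named set. At such shares, a count of 0 among so few markers is not read as a result. Markers were counted with a peak on either strand, so a peak at a marker need not come from its transcript. The part of cell identity in the results below was not tested.

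The peaks on RPPH1 began where the RNA begins. The gene lies at chr14:20343071-20343411 and is annotated with 341 bases. The bases around its start are shown because the edge of the peak falls among them, read on the minus strand of GRCh38.p14 at chr14:20343385-20343441 from the RefSeq promoter window of the neighbouring gene PARP2. Capitals mark the first 27 bases of RPPH1 and lower case the 30 bases before it.
RPPH1 5′ end: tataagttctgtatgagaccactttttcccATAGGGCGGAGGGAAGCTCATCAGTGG
In HepG2 the peak ran from 20342940 to 20343411 and in the WT-named set from 20342931 to 20343411, so that in both the first capital above was the outermost base under the peak. In the KO-named set it ran from 20343011 to 20343406, and its edge lay 5 bases inside the RNA. None of the lower-case bases was under a peak in any list.

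**Figure D1:**
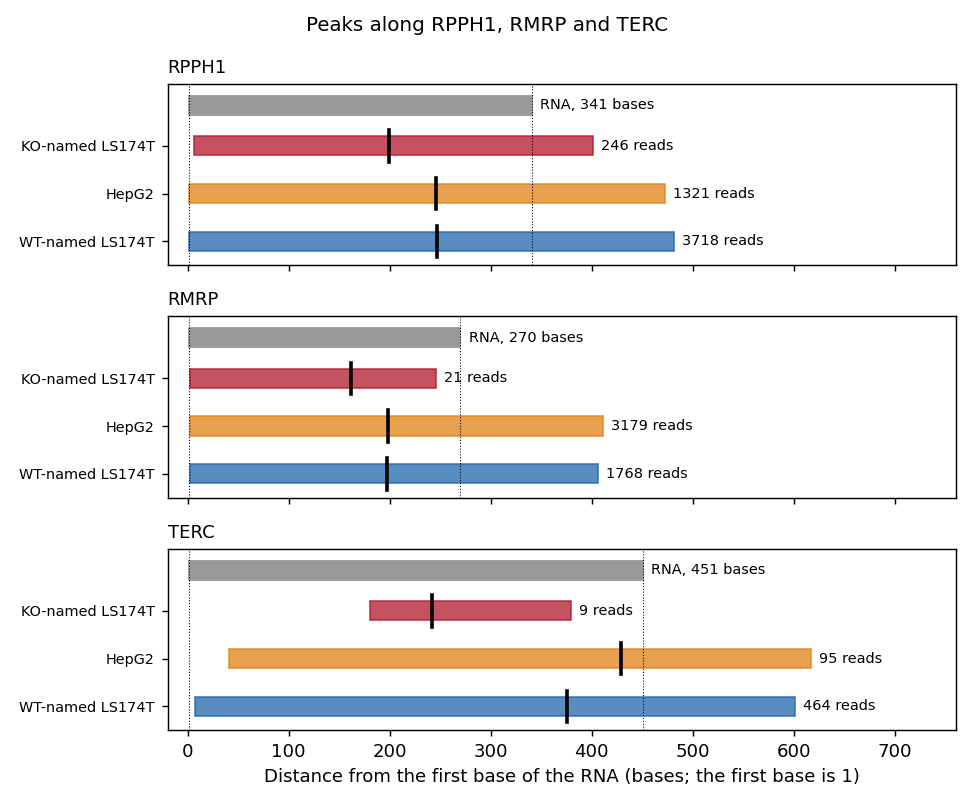
Peaks drawn along each RNA, with distance in bases from its first base on the x axis and 1 row per list. Grey bars are the annotated RNAs, coloured bars the peaks and black ticks the summits. RPPH1 and RMRP peaks start within 5 bases of the start of the RNA in every list, and 7 of the 9 peaks run past its end.

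RMRP, at chr9:35657750-35658019 with 270 annotated bases, gave the same picture. Its peak ran from 35657774 to 35658018 in the KO-named set, from 35657609 to 35658018 in HepG2 and from 35657614 to 35658018 in the WT-named set. The 5′ edge was the second base of the RNA in all 3. TERC, at chr3:169764610-169765060 with 451 annotated bases, varied more. Its peak ran from 169764682 to 169764881 in the KO-named set, from 169764444 to 169765020 in HepG2 and from 169764460 to 169765054 in the WT-named set. The first base of TERC under the peak was thus base 180, base 41 and base 7 in that order, and the list with fewest reads started latest.

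At the other end, most peaks ran past the annotated RNA. The overhang beyond the 3′ end of RPPH1 was 60 bp in the KO-named set, 131 bp in HepG2 and 140 bp in the WT-named set. For RMRP it was 141 bp in HepG2 and 136 bp in the WT-named set, and for TERC 166 bp and 150 bp. The KO-named peaks on RMRP and TERC ended 24 and 72 bp before the end of the RNA. The recovered reads fit a pileup in which each read is extended to 200 bp, and no peak of the 3 lists was narrower than 200 bp. Under such an extension a read that starts inside the RNA can reach up to 200 bp past its end, so the overhang does not measure the length of the transcript.

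In HepG2 and the WT-named set the longest RNA, TERC, had the widest peak and the shortest, RMRP, the narrowest. RPPH1 peaks were 396 bp wide in the KO-named set, 472 bp in HepG2 and 481 bp in the WT-named set. RMRP peaks measured 245, 410 and 405 bp and TERC peaks 200, 577 and 595 bp in the same order. The median width of all peaks was 206.5 bp in the KO-named set, 200 bp in HepG2 and 213 bp in the WT-named set, so 8 of the 9 peaks were wider than the median of their list. TERC was the widest peak in a short RNA gene in both HepG2 and the WT-named set. The peaks covered 98.5% of RPPH1, 90.7% of RMRP and 44.3% of TERC in the KO-named set. In HepG2 they covered all of RPPH1, 99.6% of RMRP and 91.1% of TERC, and in the WT-named set all of RPPH1, 99.6% of RMRP and 98.7% of TERC.

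All 9 summits lay inside the RNA and all 9 peaks on the minus strand, that of the genes. Counted from the 5′ end, the RPPH1 summit was base 199 in the KO-named set, base 246 in HepG2 and base 247 in the WT-named set. The RMRP summit was base 162 in the KO-named set, base 198 in HepG2 and base 197 in the WT-named set. HepG2 and the WT-named set come from different cell lines and, if the latter is an immunoprecipitate, from different antibodies by the sample labels. Their summits differed by 1 base on each of these RNAs. Such closeness was common at deep sites. Of 45 sites on assembled nuclear chromosomes (mitochondrial and scaffold sites left out) with at least 50 reads in both lists, 23 had summits no more than 1 base apart and 21 had the same 5′ edge, against 122 and 122 of all 580 sites on these chromosomes that the lists share.

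TERC did not share this closeness. Its summit was base 242 in the KO-named set, base 429 in HepG2 and base 375 in the WT-named set, which puts HepG2 and the WT-named set 54 bases apart. Under the 200 bp extension, the reads counted at the summit began between bases 43 and 242 in the KO-named set, between bases 230 and 429 in HepG2 and between bases 176 and 375 in the WT-named set. The KO-named position rests on 9 reads and the HepG2 position on 95, and whether the shift exceeds what such numbers allow was not tested. A summit of extended reads marks where most reads overlap, not a crosslinked base.

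RPPH1 was the deepest of the 3 RNAs in both LS174T lists, with 246 reads in the KO-named set (exact Poisson 95% interval 216 to 279) and 3718 in the WT-named set (interval 3599 to 3839). In HepG2 it had 1321 reads (interval 1251 to 1394). RMRP had 21 reads in the KO-named set (interval 13 to 32.1), 3179 in HepG2 (interval 3069 to 3291) and 1768 in the WT-named set (interval 1687 to 1852). It was the deepest of the 3 in HepG2. TERC had 9 reads in the KO-named set (interval 4.12 to 17.1), 95 in HepG2 (interval 76.9 to 116) and 464 in the WT-named set (interval 423 to 508), and was the lowest of the 3 throughout.

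**Figure D2:**
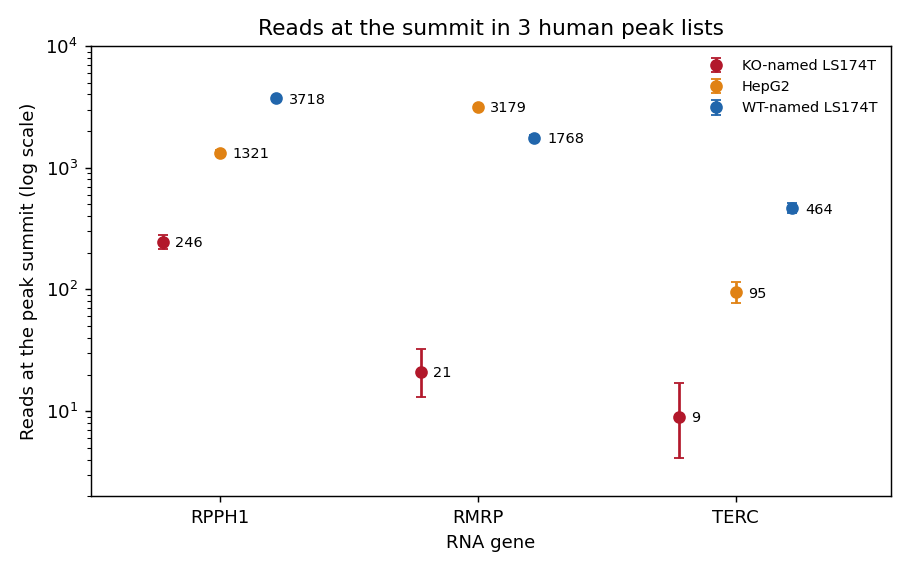
Reads at the summit (log scale) of the peak on each RNA, with exact Poisson 95% intervals as bars. RPPH1 leads with 246 reads in the KO-named and 3718 in the WT-named LS174T set, RMRP with 3179 in HepG2, and TERC is lowest in each list.

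Among all peaks, RPPH1 ranked 5 of 46 in the KO-named set, 7 of 1557 in HepG2 and 7 of 2103 in the WT-named set by reads. RMRP ranked 20, 4 and 11 in the same lists and TERC 38, 54 and 23. The peak with most reads in each list lay on an unlocalized scaffold of chromosome 22, at a site with 1984 reads in the KO-named set, 27958 in HepG2 and 76143 in the WT-named set. With scaffold and mitochondrial peaks left out, RPPH1 ranked 1 of 36 in the KO-named set, 3 of 1531 in HepG2 and 2 of 2076 in the WT-named set. On the assembled chromosomes of HepG2, the peak of 4408 reads in SYCP2L, a gene of meiotic chromosome pairing, stood above RMRP and RPPH1.

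Together the 3 RNAs held 5.10% of all summit reads in the KO-named set, 5.80% in HepG2 and 3.24% in the WT-named set. The share depends on which peaks are counted. Without mitochondrial peaks it was 8.91%, 6.99% and 4.31% in the same order, and over peaks of the assembled chromosomes alone it was 25.4%, 12.9% and 9.93%. Ranks and shares from lists of different lengths are given side by side and are not compared.

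The deposited fold enrichment told less about depth. RPPH1 had a fold of 38.5 in the KO-named set, 39.3 in HepG2 and 39.4 in the WT-named set, although its reads ranged from 246 to 3718. RMRP had folds of 15.3, 45.9 and 46.3 and TERC of 8.06, 19.6 and 31.1 in the same order. A background taken from 10000 bp of the same library limits the fold to 50, so for deep peaks it chiefly reflects the share of the window's reads that fall at the summit. For RPPH1 that share was 90.8% in the KO-named set (246 of 271 reads, Clopper-Pearson 95% interval 86.7 to 93.9%), 81.0% in HepG2 (1321 of 1630) and 79.6% in the WT-named set (3718 of 4671). RMRP, the shortest RNA, had 95.5% (21 of 22 reads), 93.1% (3179 of 3415) and 95.1% (1768 of 1860) in that order. TERC, the longest, had 75% in the KO-named set (9 of 12 reads, interval 42.8 to 94.5%), 48.7% in HepG2 (95 of 195 reads, interval 41.5 to 56.0%) and 66.6% in the WT-named set (464 of 697 reads, interval 62.9 to 70.1%). In HepG2, 95 reads thus lay at the TERC summit and 100 elsewhere in the window, and the interval allows either to be the larger part. Reads elsewhere in the window need not come from TERC. The 200 bp extension spans 58.7% of RPPH1, 74.1% of RMRP and 44.3% of TERC, so a short RNA can place more of its reads in 1 pileup. The part of RNA length in these shares was not tested.

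The balance between RMRP and RPPH1 is a ratio within each list and does not depend on how deeply the list was sequenced. There were 0.0854 RMRP reads per RPPH1 read in the KO-named set (exact binomial 95% interval 0.0519 to 0.133), 2.41 in HepG2 (interval 2.26 to 2.57) and 0.476 in the WT-named set (interval 0.449 to 0.503). The intervals do not overlap, and HepG2 was the list with more RMRP than RPPH1. The ratio was 0.180 times that of the WT-named set in the KO-named set and 5.06 times that of the WT-named set in HepG2. TERC reads per RPPH1 read were 0.0366 in the KO-named set (interval 0.0165 to 0.0706), 0.0719 in HepG2 (interval 0.0578 to 0.0886) and 0.125 in the WT-named set (interval 0.113 to 0.137). The grouping of the lists depended on which reads were counted. At the summit the intervals of the KO-named set and HepG2 overlap and lie below that of the WT-named set. From all reads of the 10000 bp window the ratio was 0.0443 in the KO-named set (interval 0.0226 to 0.0786), 0.120 in HepG2 (interval 0.103 to 0.139) and 0.149 in the WT-named set (interval 0.138 to 0.162), and it was HepG2 and the WT-named set whose intervals overlapped. These intervals leave out variation between cultures and libraries and uneven PCR, whose part was not tested.

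Set against the WT-named set, the KO-named set had 0.0662 times the reads at RPPH1 (interval 0.0579 to 0.0753), 0.0119 times at RMRP (interval 0.00733 to 0.0182) and 0.0194 times at TERC (interval 0.00881 to 0.0371). The list as a whole was shallower, since 33 of the 35 sites on assembled chromosomes that it shares with the WT-named set had fewer reads, with a median ratio of 0.208 over the 35 and of 0.280 over the 19 in protein-coding genes. All 3 RNAs lay below that median, with ranks from the lowest of 3 for RMRP, 6 for TERC and 8 for RPPH1 among the 35. A site had to pass peak calling in the shallower KO-named list to be among the 35. Sites with few WT-named reads could do so only at a high ratio, which raises the median, whereas deep sites could enter at low ratios. The place of the 3 RNAs below the median is therefore not read as a result. The ratio of reads in the 10000 bp windows around called peaks, summed over each list, was 0.0297. It depends on which peaks were called. Mitochondrial and scaffold peaks are included, so it is not independent of the mitochondrial rRNA ratio used next. Divided by the ratio at the mitochondrial rRNA gene RNR1 (193 against 4093 reads) the values became 1.40 for RPPH1, 0.252 for RMRP and 0.411 for TERC. RPPH1 was thus on either side of 1 depending on the yardstick, while RMRP and TERC were below 1 under each of the scalings tried.

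Between the cell lines, HepG2 had 0.355 times the WT-named reads at RPPH1 (interval 0.333 to 0.378), 1.80 times at RMRP (interval 1.70 to 1.91) and 0.205 times at TERC (interval 0.162 to 0.256). The median ratio over 425 shared sites in protein-coding genes was 0.933, with quartiles of 0.579 and 1.40. RMRP lay above the upper quartile and RPPH1 and TERC below the lower one. A site had to pass peak calling in both lists to be counted. Sites with few reads in 1 list could not have far fewer in the other, whereas deep sites could. The place of the 3 RNAs outside these quartiles is therefore not read as a result. Among the 45 sites with at least 50 reads in both lists, whose median ratio was 0.800, 5 had a higher ratio than RMRP, 7 a lower one than RPPH1 and 3 a lower one than TERC. Divided by the ratio at an RNR1 site (1782 against 4093 reads, 0.435) the values became 0.816 for RPPH1, 4.13 for RMRP and 0.470 for TERC. Division by a shared value cannot change their order, only their sizes, here by more than 2-fold. Another RNR1 site had a ratio of 0.262, and RNR2 sites had 0.228 and 0.300. The RPPH1 ratio lies below the first of these rRNA sites and above the others, so its side of 1 depends on the site used. RMRP lies above and TERC below all of them. Cell line, antibody and library differ together here, as may immunoprecipitate and input if the record rather than the name of the WT-named set holds, and these cannot be told apart.

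**Figure D3:**
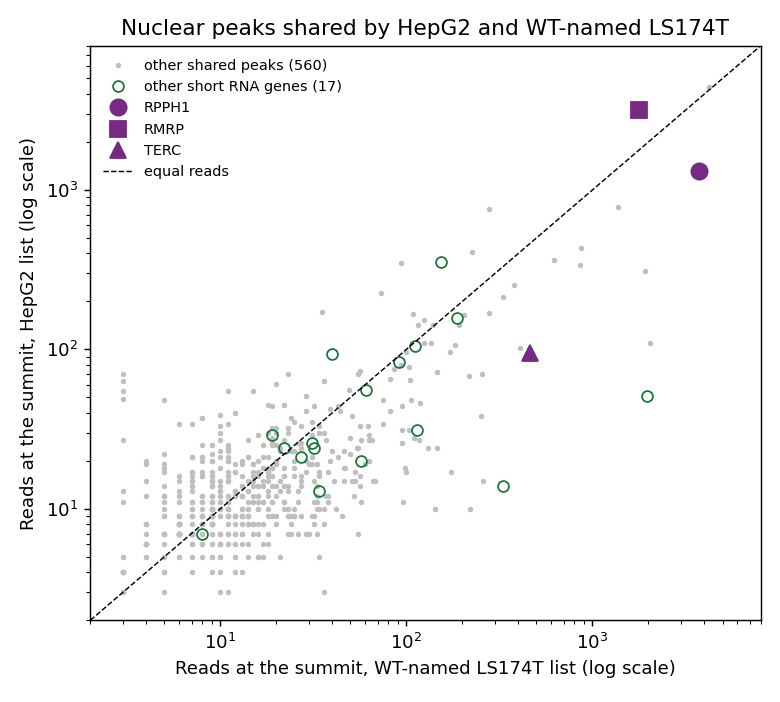
Reads at the summit of 580 sites on assembled nuclear chromosomes with a peak in both lists, HepG2 on the y axis and the WT-named LS174T set on the x axis, both on log scales. RMRP (3179 against 1768) lies above the dashed line of equal reads, and RPPH1 (1321 against 3718) and TERC (95 against 464) lie below it.

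Few other short noncoding RNAs had a peak at all. Of 1418 other annotated small nuclear, nucleolar, Cajal body, Y, vault and related RNA genes, 1 overlapped a peak in the KO-named set (0.0705%), 24 in HepG2 (1.69%) and 38 in the WT-named set (2.68%). Of those genes 765 are provisional entries with a LOC symbol, none of which had a peak, and without them the shares were 0.153%, 3.68% and 5.82% of 653 genes in the same order. For comparison, 0.115% of protein-coding genes overlapped a peak in the KO-named set, 5.52% in HepG2 and 7.29% in the WT-named set. The 3 RNAs were thus 3 of the 4 short RNA genes with a peak in the KO-named set. The fourth, SNORD38A, had 14 reads and a summit outside the annotated snoRNA. RPPH1, RMRP and TERC were chosen with earlier results of these data known, so their count is not read against these shares.

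No peak overlapped RN7SK, the RNA that holds back the elongation factor P-TEFb, or RN7SL1 and RN7SL2, the signal recognition particle RNAs, which like RPPH1 and RMRP are polymerase III products longer than 200 bases. The 4 Y RNAs, the 12 spliceosomal and related snRNA genes of the list and BCYRN1 had none either. Some of these families have many near-identical copies in the genome. How reads with several matches were treated is not given in the sources used here, and its part was not tested. Vault RNAs, further polymerase III products, had peaks in 0 of 4 genes in the KO-named set, 3 of 4 in HepG2 and 3 of 4 in the WT-named set. VTRNA1-2 reached 157 reads in HepG2 and 186 in the WT-named set, well under RPPH1 and RMRP.

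**Figure D4:**
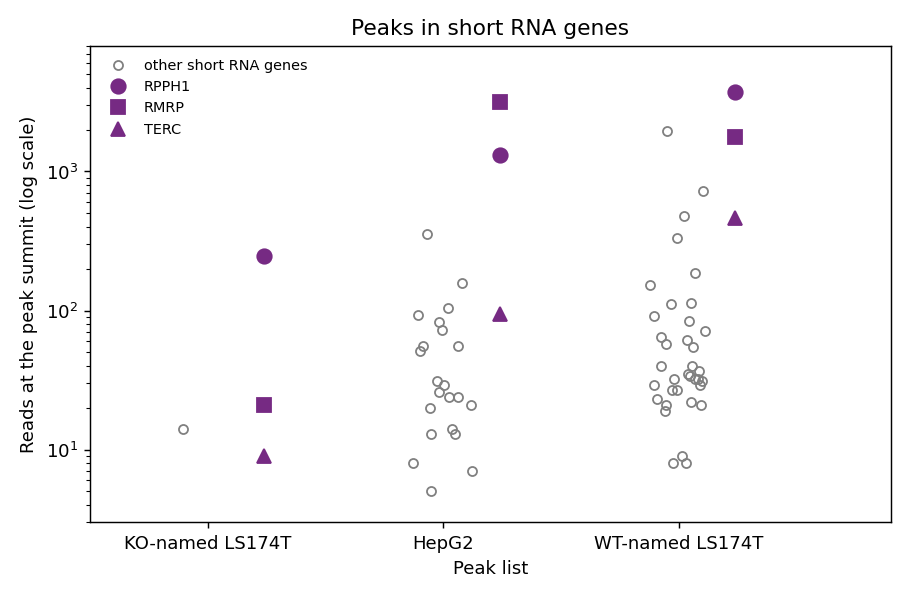
Reads at the summit (log scale) of each peak in a short RNA gene, by list. Filled symbols are RPPH1, RMRP and TERC, and open circles the other short RNA genes, which reach 14 reads in the KO-named set, 354 in HepG2 and 1957 in the WT-named set.

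TERC can be set beside the RNAs that share its H/ACA architecture or its Cajal body location. Of 211 such genes (symbols starting SNORA or SCARNA), 0 had a peak in the KO-named set, 2 in HepG2 (0.948%) and 14 in the WT-named set (6.64%). Over all 1418 other short RNA genes the shares were 0.0705%, 1.69% and 2.68% in the same order. Over the 653 without a LOC symbol they were 0.153%, 3.68% and 5.82%. The 2 in HepG2 were SNORA88, at 354 reads with a summit outside the annotated RNA, and SCARNA28, at 51 reads. TERC with 95 reads was above SCARNA28. In the WT-named set SCARNA28 (1957 reads), SCARNA17 (722) and SCARNA9 (482) were above TERC (464). SCARNA17, with 421 annotated bases close to TERC in length, likewise had a wide peak of 518 bp with 57.4% of its window's reads at the summit. In contrast, SCARNA9, with 353 bases, had 99.0% there. SCARNA2, with 420 bases, had a peak of 201 bp and 88.9% there, from only 8 of 9 reads. The ratio of HepG2 to WT-named reads over the 17 other short RNA sites found in both lists ranged from 0.0261 at SCARNA28 to 2.33 at SNORD135, with a median of 0.844. The values of RPPH1, RMRP and TERC lie within that range.

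Peaks on the other short RNA genes were placed in varied ways. The 5′ edge lay 0 to 6 bases inside the gene at 3 of 24 other short RNA genes in HepG2 and 10 of 38 in the WT-named set, against 2 of 3 and 3 of 3 for RPPH1, RMRP and TERC. That limit equals the WT-named TERC edge, and with 0 to 20 bases, chosen after seeing the data, the counts were 13 of 24 and 14 of 38, against 2 of 3 and 3 of 3. A difference in edge between the RNAs is therefore not read from them. The summit lay inside the annotated RNA at 4 of 24 and 8 of 38. Most of these genes are shorter than the 200 bp extension (1 of the 24 and 5 of the 38 are not), so a summit inside the RNA is harder to reach for them, and no test of the difference was made.

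The surroundings held little else. No list had another peak within 5000 bp of any of the 3 genes. PARP2, a DNA repair enzyme gene that starts 224 bp from RPPH1, had no peak along its span, nor did CCDC107 and ARHGEF39 next to RMRP or ACTRT3 next to TERC. RMRPP5, the pseudogene copy of RMRP in the gene table, had none. Reads from other copies of these RNAs that map to the parent gene would be counted there, and this was not tested.

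Some protein partners had shallow peaks at their own genes. Among 11 proteins of RNase P and RNase MRP, 0 had a peak in the KO-named set, 1 in HepG2 (POP7, 9 reads) and 1 in the WT-named set (RPP25L, 6 reads). Among 12 telomerase and H/ACA proteins the counts were 0 in the KO-named set, 1 in HepG2 (NHP2, 11 reads) and 2 in the WT-named set (NOP10 with 8 reads and the ATPase gene RUVBL2 with 10). NHP2 and NOP10 are core H/ACA proteins. None of 6 shelterin genes, whose proteins cap telomeres, had a peak. Beside the 5.52% of protein-coding genes with a peak in HepG2 and the 7.29% in the WT-named set, these counts are too few to place above or below the background. None of these peaks exceeded 11 reads.

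Across the 36 sites found in all 3 lists, the pattern of log2 reads nearest to RPPH1 was that of the mitochondrial rRNA RNR2, whose site with 634, 3158 and 10515 reads in the KO-named, HepG2 and WT-named sets lay at a distance of 0.17. RNR1 followed at 0.56. For TERC the nearest was another RNR2 site (780, 5464 and 23957 reads, distance 0.56), then 2 sites on an unlocalized scaffold of chromosome 22 (0.56 and 0.60) and DANCR (0.89). The second of these scaffold sites holds the 1 peak whose reads, 76143 in the WT-named set, were solved only approximately. RMRP had no close match. Its nearest site, outside annotated genes on chromosome 12 with 5, 170 and 278 reads, lay at 1.57, and SYCP2L at 1.79. Each distance rests on 3 points that share each list's depth.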

How the data were processed

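The data were 3 human peak lists deposited by the authors, made per the submitters' processing notes with cutadapt, BWA and MACS2 on hg38. Versions, settings and any pooling of libraries are not given in the sources used here. Each peak carries the authors' score, fold (summit over local background), −log10 p-value and −log10 q-value, all as deposited, and peaks were called per strand, per the deposited peak names. Liver peaks (mm10) were not used.

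Reads at the summit (n) and background (λ) were solved here from fold = (n + 1) / (λ + 1) and the Poisson chance of exceeding n, with −log10 p met to within 0.001 (more for very deep peaks) and λ a multiple of 0.02 (200 bp extension, 10000 bp window). A unique solution was found for all 46 KO-named, all 1557 HepG2 and 2102 of 2103 WT-named peaks. The solver was tested on counts simulated under the same formula, extension and window. That test checks the solving and cannot show that the deposited values follow this model. Genes came from the RefSeq table of GRCh38.p14, which gives no strand, and overlap of a peak with a gene was counted on either strand. The strand of the 3 RNA genes is background knowledge. Peaks of 2 lists were paired where they shared 1 bp or more and the strand, taking the deepest partner. Other rankings, scalings, overlap and threshold rules were tried as alternatives. Intervals are exact, at 95%, and cover counting error only. The text names the 3 RNAs, their neighbours within 5000 bp, other short RNAs, protein partners with a peak and the 5 sites most like each RNA. The RNAs and lists were chosen with earlier results of these data known. Python 3.11.15, scipy 1.17.1, pandas 2.3.3 and matplotlib 3.10.9 were used.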

Additional observations from a re-analysis of the deposited data

How the results depend on the processing

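No list has values per library, so leaving out a replicate was not possible, and differences between lists carry no replicate check. No paired analysis was possible because the lists hold no values per replicate. Every RNA kept its peak in each list when the summit had to lie in the RNA or the strand had to match. With −log10 q of at least 10, a fold of at least 10, or 50% of the RNA covered, TERC dropped out of the KO-named set (2 of 3 left) and no other site did. The KO-named values of RMRP and TERC rest on 21 and 9 reads.

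By fold, RPPH1 ranked 3 in the KO-named set, 14 in HepG2 and 25 in the WT-named set (by reads 5, 7 and 7), RMRP 10 in the KO-named and 9 in the WT-named set (by reads 20 and 11), and TERC 71 in HepG2 and 35 in the WT-named set (by reads 54 and 23). By score, RPPH1 ranked 4, 5 and 4 over the 3 lists, RMRP 3 in HepG2 and 9 in the WT-named set, and TERC 21 in the WT-named set. Among short RNA peaks alone RPPH1 ranked 1, 2 and 1, RMRP 2, 1 and 3 and TERC 4, 6 and 6.

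The ratio of KO-named to WT-named reads at RPPH1 turned above 1 when scaled by window reads (2.23) or RNR1 (1.40), and was 0.237 when scaled by protein-coding sites. In the order of those 3 scalings RMRP came to 0.400, 0.252 and 0.0425 and TERC to 0.654, 0.411 and 0.0694. Likewise HepG2 to WT-named ratios became 0.774, 0.816 and 0.381 at RPPH1 and 3.92, 4.13 and 1.93 at RMRP, and 0.446 and 0.470 at TERC under the first 2. From window reads, TERC had 0.280. The scalings differ in the sites they rest on. RMRP per RPPH1 read became 2.10 in HepG2 and 0.398 in the WT-named set from window reads, and TERC per RPPH1 read 0.120 and 0.149. Without LOC entries, the share of other short RNA genes with a peak was 3.68% in HepG2 and 5.82% in the WT-named set, since fewer genes are counted. Alternatives added after seeing the data changed the share of summit reads at the 3 RNAs to 8.91%, 6.99% and 4.31% (KO-named, HepG2, WT-named) with scaffold peaks and to 5.10%, 5.80% and 3.24% with mitochondrial peaks too, against 25.4%, 12.9% and 9.93% on assembled chromosomes. A limit of 20 bases in place of 6 raised the other HepG2 short RNA genes with a 5′ edge just inside the RNA to 13, against 3.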
